A study of Mus musculus with 24 samples.

Results

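The potassium, calcium and sodium channel genes of mouse islets were taken by name. They are the genes whose array name begins with Kcn (potassium channels and their accessory subunits) or Cacn (voltage-gated calcium channel subunits), or is Scn with a number and a or b (sodium channel pores and beta subunits). Kcnj11, Cacna1c and Cacna1d were left out. The rule gave 132 gene names on 202 of 55681 probes, out of 34797 gene names in all. Of these, 97 were well above background on at least 4 of 24 arrays, on at least 1 probe, and were tested among 22968 genes. The other 35 were not tested.

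The study compared islets of male C57BL6/J (BL6) and C57BLKs/J (BLKS) mice, 2 inbred strains. Mice aged 8 weeks were given normal chow (18% of energy from fat), a high-fat diet (HFD, 42% of energy from fat) or the high-fat diet containing 140 mg pioglitazone per kg of diet. Pioglitazone activates PPAR-gamma, a nuclear receptor, and is used as an insulin sensitizer. The feeding time is 12 weeks in the sample labels and 16 weeks in the series design, and it was not settled here. Each of the 6 combinations of strain and diet had 4 mice, with 1 array for each mouse, and the islets were isolated with collagenase and neutral protease. No transgene or deletion is named for any group.

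In the beta cell, glucose metabolism closes ATP-sensitive potassium channels, the membrane depolarizes, and voltage-gated sodium and calcium channels open to give action potentials and calcium entry, which releases insulin. Voltage-gated and calcium-activated potassium channels repolarize the membrane and end each action potential. Two-pore potassium channels carry a background current that holds the resting potential, and accessory subunits set the gating or surface level of the pores. Alpha, delta, nerve, glial, duct and vessel cells of an islet preparation have channel sets of their own.

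Values are log2 processed signals minus the 75th percentile of the array, so that 0 is the level of the 75th-percentile probe and 1 unit is a doubling. They compare 1 probe between samples and give no order of level between genes. A gene was called when limma's Benjamini-Hochberg adjusted p over all 22968 genes was under 0.05. Differences are given with the standard error of the fit and group values as mean ± SD. In whole islets, fewer cells of a type and less RNA per cell cannot be told apart.

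The islet hormone probes Ins2, Gcg, Sst and Ppy were well above background on all 24 arrays. Nnt, which C57BL6/J mice carry as a deletion, was at most 2.71 in BL6 and at least 3.48 in BLKS, with no overlap. The array 75th percentile ranged from 217.6 to 402.4 intensity units and no spot was saturated. No slide carried both strains on the same diet, so strain and slide cannot be told apart within a diet. With slide as a random block, 63 channel genes were called between strains in place of 61. The estimated correlation between arrays of a slide was -0.0123, so this block changed little and cannot separate strain from slide. The share of all genes called in that setting is not given here. The ductal marker score (the mean of 7 genes, among them Krt19, Krt7, Spp1, Cftr, Sox9 and Muc1) ranged from -3.01 to -1.42 in BL6 and from -1.05 to -0.12 in BLKS, and 5 of its 7 genes were called higher in BLKS. Of 7 alpha-cell markers, 5 were called lower in BLKS and 1 higher, and of 9 measured macrophage markers 6 were lower and 1 higher. Adipocyte markers were not tested (0 of 5 passed the detection filter). Lymphocyte marker scores were above -1 on 7 arrays, spread over all 6 groups. The part of these cell types in the channel results was not tested. Neuron, acinar and lymphocyte scores were used only in alternative settings.

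Which channels were detected differed by family. Of the 132 names, 64 were well above background on all 24 arrays (48.5%, against 52.7% of all gene names), and 26 on no array (19.7%, against 23.8%). All 24 arrays detected 22 of 40 voltage-gated potassium pore genes, 3 of 14 inward rectifiers, 8 of 14 two-pore channels and 5 of 8 calcium- or sodium-activated potassium channels. They also detected 7 of 16 potassium accessory subunits, 4 of 8 calcium pores, 7 of 16 calcium auxiliary subunits, 5 of 10 sodium pores and 2 of 4 sodium beta subunits. Among genes known from islets or nerve, Cacna1e, the R-type calcium pore, and Kcne2, an accessory subunit, were well above background on no array, and Cacna1b, the N-type calcium pore, on 1 array. Kcnv1, a silent voltage-gated subunit, was not tested either.

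The 2 strains were set apart first, as BLKS minus BL6 with equal weight on the 3 diets, which asks how the channel set of the islets differs between them. Kcnmb1, the beta-1 subunit that raises the calcium sensitivity of the BK channel, was higher in BLKS, as were the inward rectifiers Kcnj5 and Kcnj12 and the two-pore channels Kcnk5 and Kcnk10. Kcnj10, the Kir4.1 inward rectifier best known from glia, was lower in BLKS, as was the sodium channel beta-2 subunit Scn2b. The voltage-gated pore Kcnh6 was lower on its brighter probe only. Of the 97 genes tested, 29 were called higher in BLKS and 32 lower. Over all genes tested, 64.7% were called (30.1% higher, 34.5% lower), so this share, 62.9%, is near the background and is no result about channel genes. Their median difference was -0.02 (-0.05 over all genes) and their median absolute difference 0.43 (0.35). A difference of over 1 log2 unit was found in 21 of the 97 (21.6%, against 15% of all genes), and of over 2 units in 3 (3.09%, against 3.77%).

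**Figure D1:**
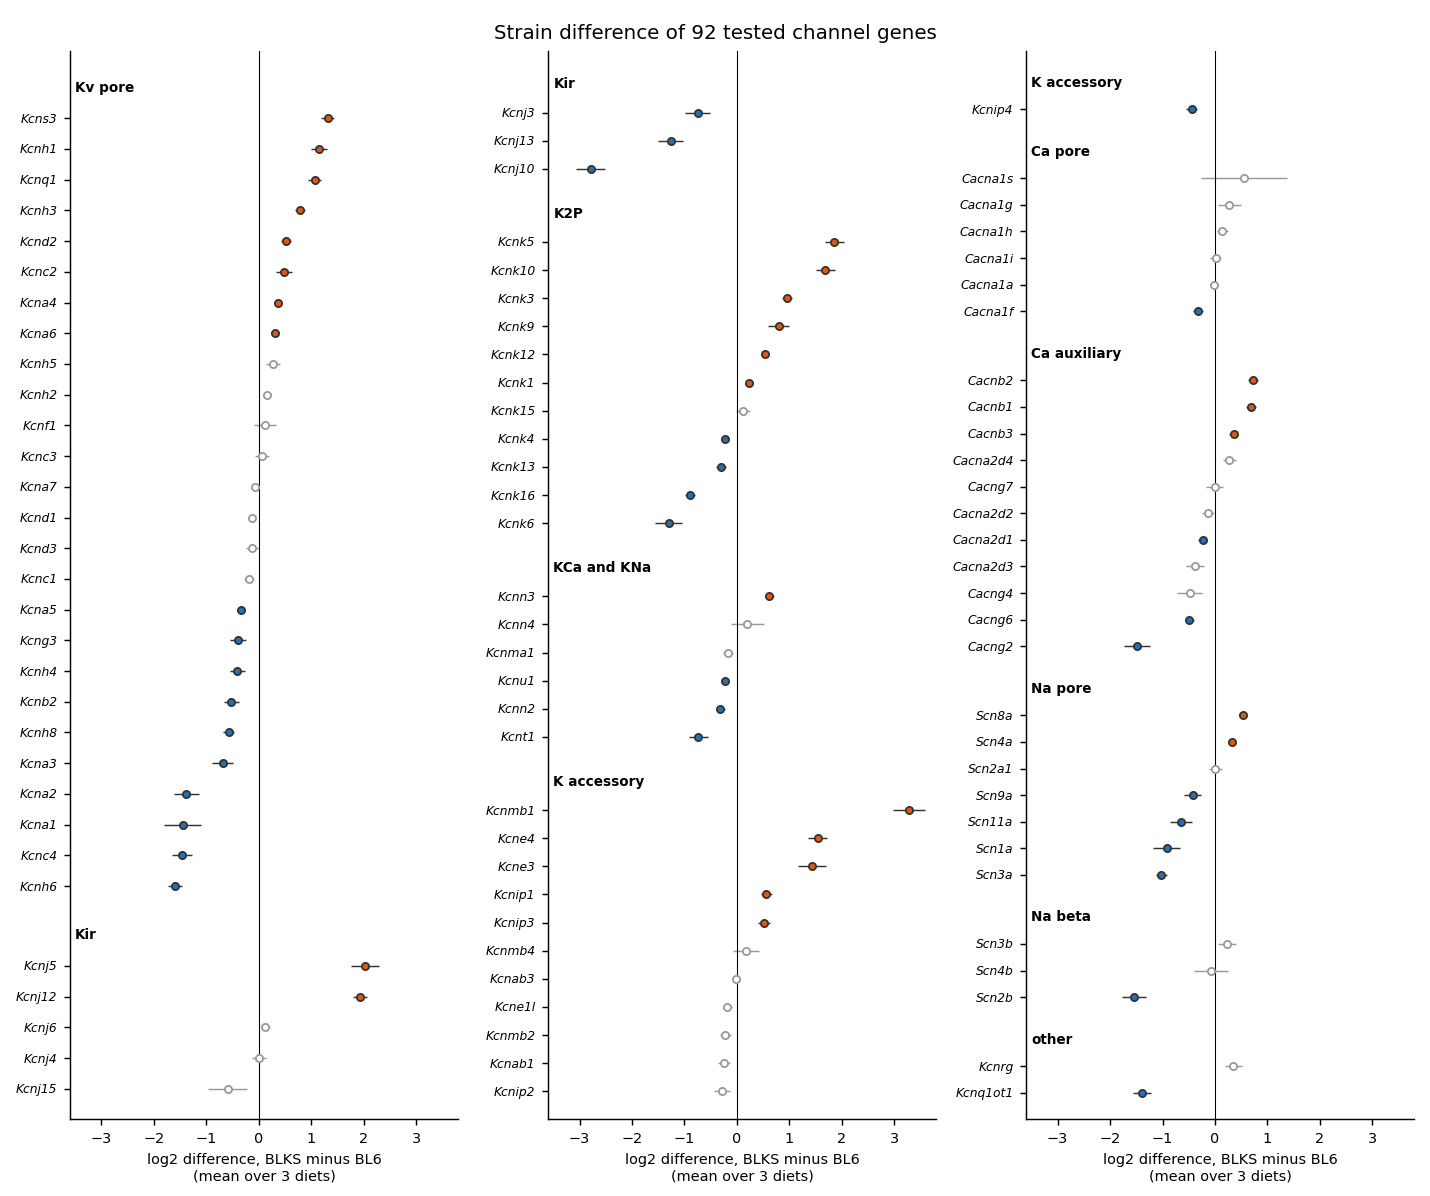
Log2 difference, BLKS minus BL6, averaged over the 3 diets, for 92 tested channel genes, grouped by family (points, estimate; bars, standard error; filled orange and blue, called higher and lower in BLKS; open, not called). Kv pore, Kir, K2P, KCa and KNa stand for voltage-gated, inward rectifier, two-pore and calcium- or sodium-activated potassium channels. On this scale Kcnmb1 (3.28) and Kcnj10 (-2.78) are the points farthest to the right and to the left.

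Voltage-gated potassium pores were called higher in BLKS for 9 of the 29 tested and lower for 10. Kcnh6 (Kv11.2) was lower in BLKS on its brighter probe only. Another probe, well above background on all 24 arrays, gave 0.09 (adjusted p 0.52 over probes). On its brighter probe, at chr11:105895319-105895378 (mouse build mm9), the 4 BL6 chow mice were at -0.29, -0.15, -0.40 and -0.09, and the 4 BLKS chow mice at -2.51, -1.92, -1.60 and -2.27. Over the 3 diets the 12 BL6 arrays ran from -1.24 to -0.09 (median -0.63) and the 12 BLKS arrays from -2.85 to -1.60 (median -2.10). All BL6 arrays were above all BLKS arrays, and the difference was -1.60 ± 0.14 (adjusted p 2.7e-09). Kcnq1 (Kv7.1), known for its link to type 2 diabetes in people, ran the other way. Its 12 BLKS arrays were between -0.98 and 0.26 (median -0.37) and its 12 BL6 arrays all lay lower, down to -2.02 (median -1.26), again with no overlap, and the difference was 1.06 ± 0.13 (adjusted p 2.5e-07). Kcns3, a silent subunit that joins other pores, had no overlap either, at -4.51 to -3.30 in BL6 and -3.19 to -2.05 in BLKS, a difference of 1.31 ± 0.12. Kcnh3 (Kv12.2) differed by 0.78 ± 0.09, from -0.18 to 0.69 in BL6 and from 0.83 to 1.34 in BLKS.

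Other voltage-gated pores called higher in BLKS were Kcnh1 (1.14), Kcnd2 (0.51), Kcnc2 (0.49), Kcna4 (0.36) and, on its brightest probe, Kcna6 (0.30). Those called lower were Kcnc4 (-1.46), Kcna1 (-1.46), Kcna2 (-1.38), Kcna3 (-0.68), Kcnh8 (-0.58), Kcnb2 (-0.53), Kcnh4 (-0.41), Kcng3 (-0.40) and Kcna5 (-0.33). Kcna1, Kcna2 and Kcnc4 carry delayed rectifier or A-type current in axons. The other genes of this family were not called, among them Kcnh2 (0.15 ± 0.08, adjusted p 0.087), Kcnc1 (-0.18 ± 0.10, adjusted p 0.11) and Kcnd3 (-0.13 ± 0.12, adjusted p 0.37). On chow Kcnd3 was called lower in BLKS (-0.58 ± 0.21, adjusted p 0.034), but in 13 of 22 alternative settings, with adjusted p up to 0.12. That call was lost without BL6 mouse 1, 2 or 3 or BLKS mouse 2 or 4.

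Among 8 inward rectifiers tested, 2 were called higher in BLKS and 3 lower. The 2 higher ones belong to different types: Kcnj12 (Kir2.2) rectifies strongly, and Kcnj5 (GIRK4) is opened by G protein beta-gamma subunits. Kcnj12 was at 0.78, 0.85, 0.36 and 0.76 in BL6 chow mice and at 2.70, 2.29, 2.42 and 2.47 in BLKS chow mice. Its 12 BL6 arrays reached 1.09 at most and its 12 BLKS arrays were 2.29 or higher, and the difference was 1.93 ± 0.13 (3.82-fold, adjusted p 5.4e-11). Kcnj5 was well above background on all 12 BLKS arrays and on 2 of 12 BL6 arrays. On the high-fat diet it was well above background on no BL6 array and on all 4 BLKS arrays, at least 1.79-fold higher in BLKS (adjusted p 6.3e-05), where the bound sets the BLKS mean against the lowest well-above-background signal of each BL6 array.

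Kcnj10 was lower in BLKS. On chow, the BL6 mice were at -1.65, -2.11, -2.14 and -1.97 and the BLKS mice at -3.78, -4.23, -4.23 and -4.53. On the high-fat diet, BL6 mice were at -1.29, -1.91, -1.28 and -2.17 and BLKS mice at -4.10, -5.62, -6.93 and -5.59. With pioglitazone, BL6 mice were at -1.91, -1.80, -1.25 and -1.42 and BLKS mice at -3.05, -2.74, -5.16 and -4.35. The strains did not overlap on any diet, and the BLKS mice were more spread (SD 1.16 and 1.13 on the diets with high fat) than the BL6 mice (SD 0.45 and 0.31). On these diets 1 and 3 of the 4 BLKS arrays were well above background, against all 4 BL6 arrays of each. The difference was -2.78 ± 0.28 (adjusted p 2.2e-08), with 7 of 12 BLKS arrays well above background. Of 7 measured Schwann and glial markers, 4 were also called lower in BLKS and 1 higher, with Sox10 at -1.83 (adjusted p 1.3e-08), and their part in the Kcnj10 difference was not tested. Kcnj13 (-1.27) and Kcnj3 (-0.75) were also lower, while Kcnj6 (0.12 ± 0.09, adjusted p 0.22) and Kcnj15 (-0.60 ± 0.36, adjusted p 0.16) were not called. The Kcnj3 probe was well above background on 3 of 12 BL6 and 1 of 12 BLKS arrays. Over the alternative settings its difference was as small as -0.06, with adjusted p up to 0.25.

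Of 11 two-pore potassium channels, 6 were called higher in BLKS and 4 lower. Kcnk16 (TALK-1), the two-pore channel known for its high level in beta cells, was lower: BL6 chow mice were at 1.96, 2.05, 2.25 and 2.49 and BLKS chow mice at 1.25, 1.14, 1.24 and 1.48. Its lowest BL6 array (1.56) was above its highest BLKS array (1.48), and the difference was -0.90 ± 0.10 (adjusted p 1.6e-07). Of 8 beta-cell markers, 4 were called lower in BLKS and 0 higher, with a median difference of -0.20, and their part in the Kcnk16 difference was not tested. Kcnk5 (TASK-2), a pH-sensitive channel of epithelia, was higher by 1.86 ± 0.19, from a BL6 range of -4.91 to -2.62 to a BLKS range of -2.05 to -1.56. Kcnk10 (TREK-2) was higher by 1.68 ± 0.18, and Kcnk3 (TASK-1) by 0.95 ± 0.09, each with no overlap between strains. Kcnk9 (0.79), Kcnk12 (0.53) and Kcnk1 (0.23) were also higher, and Kcnk6 (-1.30), Kcnk13 (-0.30) and Kcnk4 (-0.23) lower. Kcnk9 was well above background on all 4 BLKS high-fat arrays and on none of the BL6 chow or high-fat arrays, at least 1.34-fold higher in BLKS on the high-fat diet (adjusted p 0.015).

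Of 6 calcium- and sodium-activated channels, 1 was called higher in BLKS and 3 lower. Kcnn3 (SK3), a small-conductance channel opened by calcium, was called higher in BLKS (0.62 ± 0.08), and Kcnt1 (-0.73), Kcnn2 (-0.32) and Kcnu1 (-0.22) lower. The Kcnt1 probe was well above background on only 3 BL6 arrays and 1 BLKS array. Over the alternative settings its difference was as small as -0.09, with adjusted p up to 0.057. Kcnma1, the BK pore, was not called on its brightest probe (-0.17 ± 0.10, adjusted p 0.12), nor was Kcnn4 (0.20 ± 0.32, adjusted p 0.60).

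Potassium accessory subunits were called higher in BLKS for 5 of 12 and lower for 1. Kcnmb1 had the largest difference of the 97 genes on the main scale, while with normexp it was 1.21, below the 1.81 of Kcnj12. In BL6 its values were -4.48, -4.57, -4.56 and -4.61 on chow, -5.23, -4.13, -4.43 and -5.90 on the high-fat diet, and -2.86, -5.60, -6.82 and -4.53 with pioglitazone. In BLKS they were -1.56, -1.34, -1.24 and -1.89, then -1.15, -1.37, -1.63 and -1.72, and with pioglitazone -1.85, -1.15, -1.66 and -1.81. All 12 BLKS arrays were well above background, against 1 high-fat and 1 pioglitazone array among the 12 of BL6. The difference was 3.28 ± 0.31 (adjusted p 8.0e-09). On chow, where no BL6 array was well above background, BLKS was at least 7.7-fold higher (adjusted p 9.2e-05). Of the other BK beta subunits, Kcnmb2 (-0.22 ± 0.10, adjusted p 0.074) and Kcnmb4 (0.18 ± 0.24, adjusted p 0.54) were not called. Kcne4 (1.54 ± 0.19, no overlap) and Kcne3 (1.43 ± 0.26), single-pass partners of the Kcnq pores, were higher. The calcium-binding Kv4 partners Kcnip1 (0.56) and Kcnip3 (0.51) were higher and Kcnip4 (-0.45) lower. Kcnmb1, Kcnk5, Kcne3 and Kcne4 differed in the same direction as the ductal score, whose part in them was not tested. Of 11 stellate and smooth muscle markers, 2 were higher in BLKS and 1 lower.

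Among the calcium channel pores, 1 of 6 was called: Cacna1f (-0.33 ± 0.09). Cacna1a, the P/Q-type pore, differed by -0.02 ± 0.08 (adjusted p 0.82), with its sign turning under the neuron score covariate (0.01) and in the authors' value table (0.03). The T-type pores Cacna1g (0.27 ± 0.22, adjusted p 0.29) and Cacna1h (0.14 ± 0.11, adjusted p 0.28) were not called in the mean over diets, and Cacna1h was called higher in BLKS on the high-fat diet (0.58), a call lost without BL6 mouse 1 or BLKS mouse 1. The cytoplasmic beta subunits, which bring the pore to the membrane, were higher in BLKS on the probes standing for them: Cacnb2 by 0.72 ± 0.09, Cacnb1 by 0.69 ± 0.09 and Cacnb3 by 0.35 ± 0.09. Another Cacnb2 probe, well above background on all 24 arrays, gave -0.04 (adjusted p 0.73 over probes). The BL6 arrays of Cacnb1 lay between -2.96 and -2.30 and its BLKS arrays between -2.18 and -1.44. Cacng2 (-1.49 ± 0.25), Cacng6 (-0.49 ± 0.09) and Cacna2d1 (-0.24 ± 0.08) were lower, while Cacna2d2 (-0.13 ± 0.11, adjusted p 0.31) and Cacng4 (-0.49 ± 0.23, adjusted p 0.071) were not called.

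Sodium channel pores were called higher in BLKS for 2 of 8 and lower for 5. Scn3a (Nav1.3) was at 0.58 to 1.41 in BL6 and at -0.34 to 0.59 in BLKS, a difference of -1.03 ± 0.11 (adjusted p 3.6e-08). Its ranges overlapped by 1 array of each strain. Scn9a (Nav1.7), the other pore known from mouse beta cells, was lower by less (-0.43 ± 0.16, adjusted p 0.025). Scn1a (-0.92) and Scn11a (-0.66) were lower, and Scn8a (0.54) and Scn4a (0.33) higher. Scn1a was well above background on 4 BL6 arrays and 1 BLKS array, and its sign turned to 0.49 (adjusted p 0.18) when dim probes were not filtered out. Of the beta subunits, Scn2b was lower in BLKS (-1.54 ± 0.23) and Scn3b was not called (0.22 ± 0.17, adjusted p 0.27). Outside these families, Kcnq1ot1, the noncoding antisense transcript of the Kcnq1 locus, was lower in BLKS (-1.39 ± 0.17), where Kcnq1 was higher.

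On all 12 arrays of each strain, 13 of the 97 genes had BLKS above BL6 with no overlap (10.8% of all genes did) and 3 had BLKS below BL6 (8.59% of all genes did). Among them were Kcnmb1, Kcnj12, Kcnk5, Kcnk10, Kcne4, Kcns3, Kcnq1, Kcnk3, Kcnh3, Cacnb1 and, on their brightest probes only, Cacnb2 and Kcna6 above. Below were Kcnj10, Kcnk16 and, on its brightest probe only, Kcnh6.

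**Figure D2:**
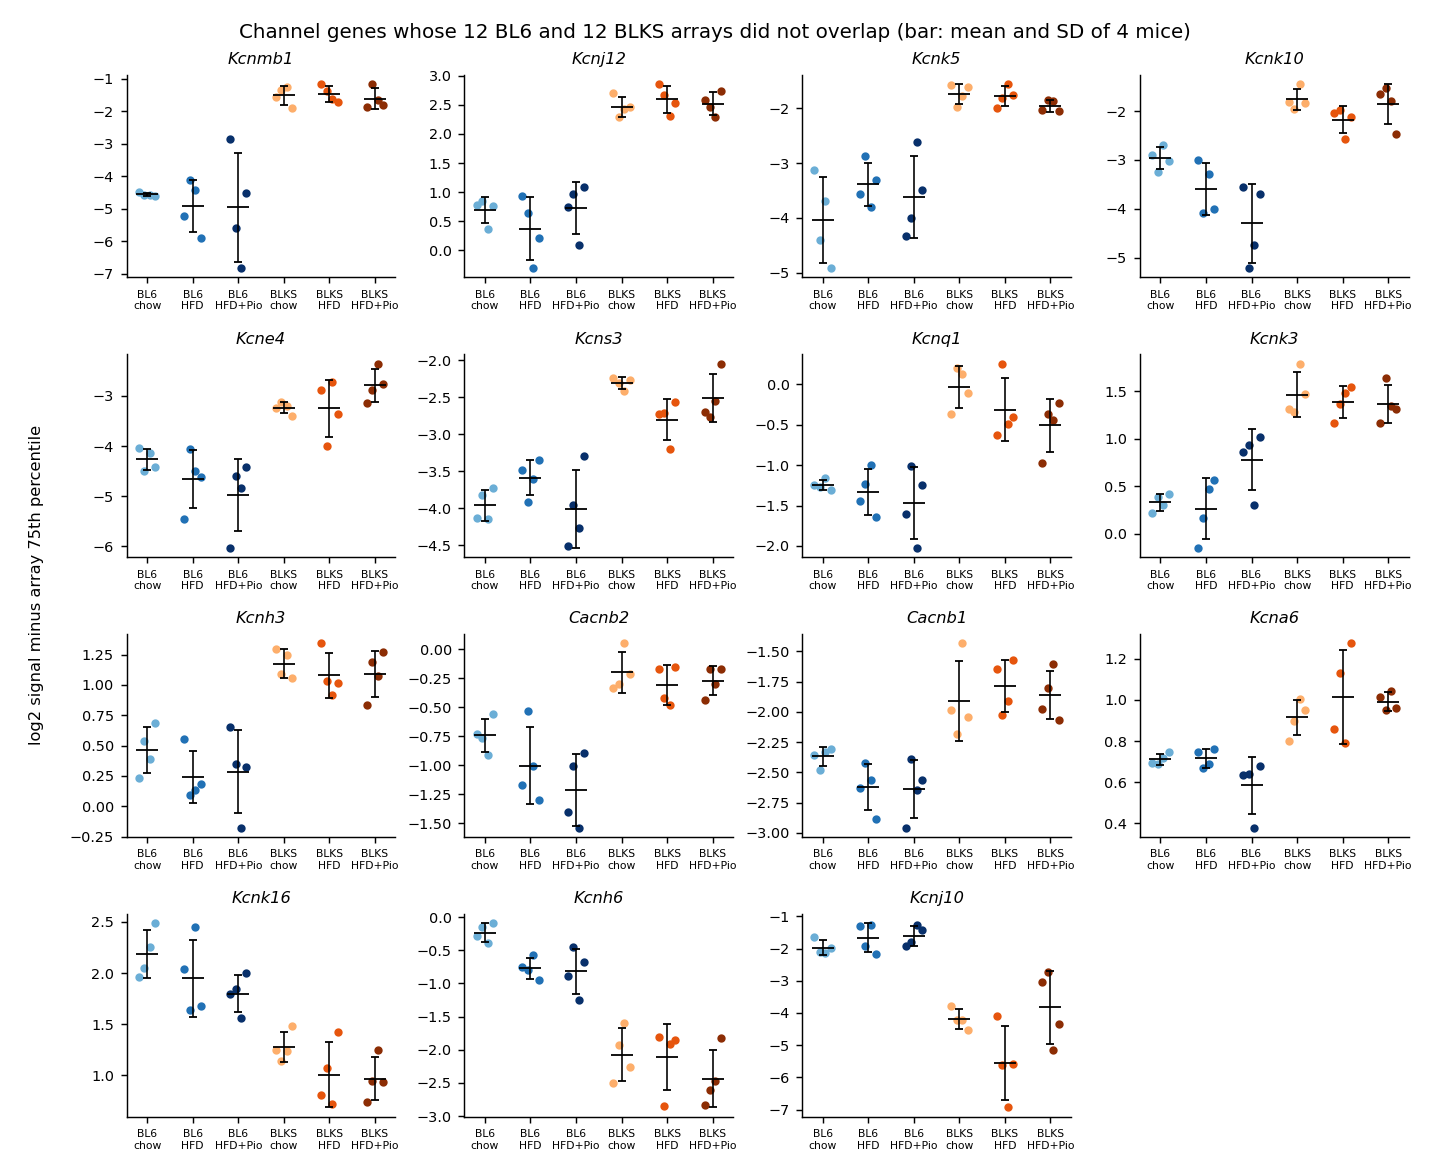
Log2 signal minus the array's 75th percentile in every mouse for 15 channel genes whose 12 BL6 and 12 BLKS arrays did not overlap (points, mice; bars, mean and SD of 4 mice; blue, BL6; orange and brown, BLKS; HFD, high-fat diet; Pio, pioglitazone). Each panel has its own axis. Kcnmb1 lies between -6.82 and -2.86 in BL6 and between -1.89 and -1.15 in BLKS, and Kcnj10 runs the other way.

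Diet by diet, BLKS against BL6 gave 23 channel genes called higher and 22 lower on chow, where 41.6% of all genes were called (20.6% higher, 20.9% lower). It gave 27 and 22 on the high-fat diet, where 49.9% of all genes were called (23.2% higher, 26.7% lower), and 25 and 13 with pioglitazone, where 45.8% were called (23% higher, 22.8% lower). Of 62 channel genes called on at least 1 diet, 25 were called on all 3, 18 of them higher and 7 lower in BLKS. The same overlap was not counted over all genes, so these counts are no result about channel genes. On the high-fat diet, 32 were called in place of 49 when a neuron marker score was a covariate. The share of all genes called in that setting is not given here, so the drop is no result about channel genes. The differences of Kcnmb1 were 3.45 on the high-fat diet and 3.33 with pioglitazone. Those on chow, high-fat diet and pioglitazone were close for Kcnj12 (1.78, 2.22 and 1.80) and Kcnk16 (-0.91, -0.94 and -0.83). Kcnk10 ranged from 1.20 on chow to 2.44 with pioglitazone, and Kcnj10 from -2.23 on chow to -3.90 on the high-fat diet, all called. Of the 4 BLKS arrays of each diet, Kcnj10 was well above background on 3 on chow and 1 on the high-fat diet. The size on the high-fat diet therefore rests mostly on signals near background. With normexp the strain difference of its high-fat response was -0.39 (adjusted p 0.51). Scn2b was lower in BLKS by -1.56 on chow and -2.96 on the high-fat diet but not called with pioglitazone (-0.09 ± 0.39, adjusted p 0.87). On the high-fat diet 4 of 8 measured neuron markers were also called lower in BLKS and 1 higher. Prph was at -3.62 (adjusted p 0.0025), Nefl at -3.32 (adjusted p 0.0058) and Stmn2 at -3.56 (adjusted p 0.002). Scn2b was called on the high-fat diet in all 21 alternative settings (-3.29 to -1.23, adjusted p at most 0.00061), among them the neuron score as a covariate. With that score its difference in the mean over diets was -1.24 (adjusted p 1.4e-06). The score did not overlap between the strains on the high-fat diet, so this setting cannot tell strain from marker level there. The part of these markers in the Scn2b difference was not tested. Kcnj3 was called higher in BL6 with pioglitazone (adjusted p 0.003). It was well above background on 2 of the 4 BL6 pioglitazone arrays and 0 of the 4 of BLKS, so its size is not given. Kcnh8 was called on chow (-1.04) and not on the high-fat diet (-0.40, adjusted p 0.066) or with pioglitazone (-0.29, adjusted p 0.19). Whether such differences change with diet is the interaction tested further on, which no channel gene passed. Cacna2d4 was called higher in BLKS on the high-fat diet (adjusted p 0.0074), with 3 of 4 BLKS arrays and 0 of 4 BL6 arrays well above background. Kcnab3 was called higher in BLKS with pioglitazone (0.40), in 18 of 22 alternative settings and not without BL6 mouse 3, BLKS mouse 3 or BLKS mouse 4 (adjusted p up to 0.099). The high-fat call of Kcnab1 (-0.53) passed in 13 of 22 settings, with adjusted p up to 0.44, and was lost without BL6 mouse 1 or 3 or BLKS mouse 1, 2 or 3. Kcna2 was well above background on 4 BL6 and 3 BLKS arrays of 4 on chow, on 4 and 2 on the high-fat diet, and on 3 and 0 with pioglitazone. With pioglitazone it was called higher in BL6 (adjusted p 0.004), with 3 of 4 BL6 arrays measuring it. Sizes of dim genes depend on the background correction: with normexp and an offset of 50 the strain difference of Kcnmb1 was 1.21, of Kcnj10 -1.02, of Kcnj5 0.39 and of Kcnk5 0.87, all still called, while that of Kcnj12 was 1.81 and of Kcnk16 -0.87.

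The promoters of 3 genes are shown. Kcnmb1 and Kcnj10 stand for the strain comparison, and Scn2b had the smallest p with pioglitazone in BLKS, where it was not called. Kcnab3, the only channel gene called with pioglitazone, had no entry in the promoter table. Each is the 250 bases before the gene's start in RefSeq (build GRCm38.p6, the reference strain), 5′ to 3′, in lower case with every CG dinucleotide in capitals.
Kcnmb1 (chr11:33962763-33963012, plus strand): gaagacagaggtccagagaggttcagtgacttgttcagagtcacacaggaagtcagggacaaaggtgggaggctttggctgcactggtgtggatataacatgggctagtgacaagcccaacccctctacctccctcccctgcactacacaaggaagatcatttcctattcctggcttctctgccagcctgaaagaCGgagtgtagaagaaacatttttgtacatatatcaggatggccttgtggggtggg
Kcnj10 (chr1:172340960-172341209, plus strand): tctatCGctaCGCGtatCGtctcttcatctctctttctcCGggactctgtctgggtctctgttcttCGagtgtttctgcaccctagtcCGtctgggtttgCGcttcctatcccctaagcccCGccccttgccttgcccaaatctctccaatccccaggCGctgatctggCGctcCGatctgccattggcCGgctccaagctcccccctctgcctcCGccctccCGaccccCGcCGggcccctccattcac
Scn2b (chr9:45117626-45117875, plus strand): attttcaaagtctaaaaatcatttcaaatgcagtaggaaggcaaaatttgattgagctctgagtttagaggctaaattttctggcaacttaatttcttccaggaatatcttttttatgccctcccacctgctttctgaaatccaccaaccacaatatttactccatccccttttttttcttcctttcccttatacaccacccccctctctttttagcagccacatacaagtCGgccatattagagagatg
The windows differ in base composition. That of Kcnj10 is 62% G and C with 17 CG dinucleotides, that of Kcnmb1 50.8% with 1, and that of Scn2b 38.4% with 1, against medians of 52.4% and 6 over 32536 windows of the same length. Counting both strands, the letters GGGCGG began 130 and 36 bases before the start in the Kcnj10 window and CCAAT 104 and 67 bases before it. Neither was in the windows of Kcnmb1 and Scn2b. Over all windows, 33% held GGGCGG and 33.8% held CCAAT. The letters TATAAA, found in 12.3% of all windows, were in none of the 3. These matches describe the reference sequence only, and nothing was measured at these promoters. Of the 132 channel gene names, 97 matched an entry of the promoter table by symbol.

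The diet and drug comparisons ask whether high-fat feeding changed these genes and whether pioglitazone changed them within that diet. Few genes of any kind passed. High-fat feeding gave 0 called channel genes in BL6 (0.0435% of all genes were called) and 0 in BLKS (0.0784%) by limma. At an unadjusted p under 0.05 there were 6 in BL6 and 11 in BLKS, against 5.46% and 9.2% of all genes. Pioglitazone gave 1 called channel gene in BL6 (0.192% of all genes) and 0 in BLKS (0.00435%), with 15 and 10 at an unadjusted p under 0.05 (10.3% and 4.18% of all genes). Without overlap between the 4 mice of each group, high-fat feeding left 3 channel genes higher and 3 lower in BL6 (2.65% and 2.21% of all genes), and 2 higher and 5 lower in BLKS (2.21% and 3.58%). Pioglitazone left 2 higher and 2 lower in BL6 (1.72% and 1.56% of all genes), and 4 higher and 1 lower in BLKS (1.74% and 1.12%).

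**Figure D3:**
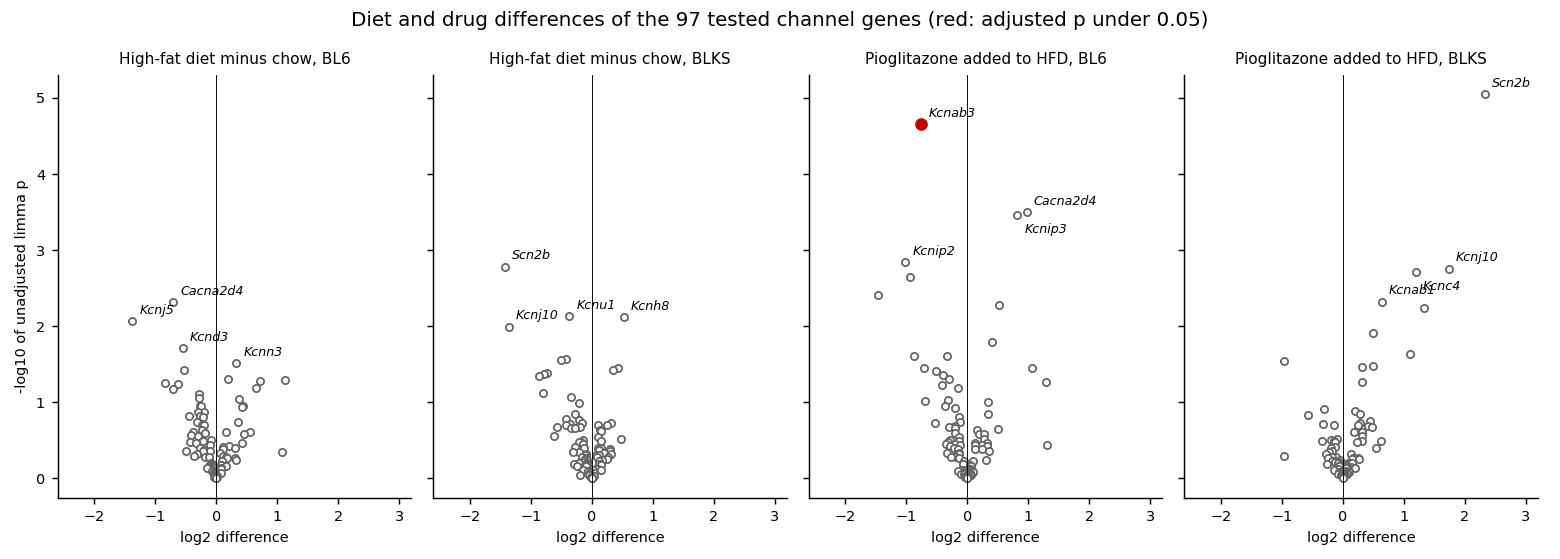
Log2 difference (x) and -log10 of limma's unadjusted p (y) of the 97 tested channel genes for high-fat diet minus chow and for pioglitazone minus high-fat diet alone, in each strain (4 mice against 4). Each point is a gene, the 4 of smallest p are named in each panel, and red marks an adjusted p under 0.05. Kcnab3 with pioglitazone in BL6 is the 1 red point, and Scn2b with pioglitazone in BLKS stands farthest to the right.

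Kcnab3, a cytoplasmic beta subunit of voltage-gated potassium channels, fell with pioglitazone in BL6. The BL6 mice were at 0.23, 0.21, 0.38 and 0.24 on chow, at 0.44, 0.58, 0.34 and 0.17 on the high-fat diet, and at -0.37, -0.24, -0.64 and -0.26 with pioglitazone. All 4 mice given pioglitazone were below all 8 other BL6 mice. The difference from the high-fat diet was -0.76 ± 0.14 (0.591-fold, adjusted p 0.023). In BLKS the mice were at 0.02, -0.04, 0.28 and 0.10 on chow, at -0.13, 0.38, -0.06 and 0.17 on the high-fat diet, and at -0.37, -0.05, 0.22 and 0.28 with pioglitazone, and the groups overlapped. The strain difference of this response was 0.69 ± 0.20 (adjusted p 0.28) and did not pass. The drop in BL6 was not called without BL6 high-fat mouse 1 (-0.74, adjusted p 0.069) or mouse 2 (-0.69, adjusted p 0.089), or without BL6 pioglitazone mouse 3 (-0.67, adjusted p 0.065). Nor was it called when the 2 groups were fitted alone (adjusted p 0.61), in the authors' value table (-0.81, adjusted p 0.064) or when the 7 arrays with lymphocyte scores above -1 were left out (-0.77, adjusted p 0.10). These 2 groups were on different slides, so drug and slide cannot be told apart for it.

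In BL6 the next genes by p did not pass with pioglitazone. Kcnip3, a calcium-binding partner of Kv4 pores also known as a transcriptional repressor, was at 0.69, 0.61, 0.64 and 0.91 on the high-fat diet and at 1.45, 1.54, 1.08 and 2.04 with pioglitazone. The groups did not overlap, and the difference was 0.82 ± 0.19 (adjusted p 0.094). It was called without BL6 pioglitazone mouse 3 (0.96, adjusted p 0.04). Cacna2d4, a calcium channel alpha-2-delta subunit known from retina, was at -3.57, -3.56, -3.93 and -3.97 on chow, at -4.49, -4.83, -4.45 and -4.12 on the high-fat diet, and at -3.89, -3.24, -3.08 and -3.77 with pioglitazone. It was well above background on all 4 chow arrays, on no high-fat array and on 3 pioglitazone arrays. Its differences were -0.71 ± 0.22 for the diet (adjusted p 0.49) and 0.97 ± 0.22 for the drug (adjusted p 0.091), neither called. Kcnk3 (0.52), Kcnip2 (-1.02), Kcnh1 (-0.93) and Scn1a (downward) followed, with adjusted p from 0.17 to 0.26. Scn1a was well above background on 2 of the 4 high-fat arrays and on no pioglitazone array, so its size is not given.

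High-fat feeding in BL6 gave values short of the threshold for Kcnj5 (adjusted p 0.61, with 1 of 4 chow and 0 of 4 high-fat arrays well above background), Kcnd3 (-0.55, adjusted p 0.75), Kcnn3 (0.33, adjusted p 0.84) and Kcnn4 (1.13, adjusted p 0.92). In BLKS the smallest p belonged to Scn2b (-1.43 ± 0.39, adjusted p 0.19), followed by Kcnu1 (-0.37, adjusted p 0.30), Kcnh8 (0.53, adjusted p 0.30) and Kcnj10 (-1.37, adjusted p 0.34). Cacna1h (0.44, adjusted p 0.49) and Cacng6 (0.34, adjusted p 0.50) were the next upward. Acinar markers had median differences of 1.98 in BL6 and 2.72 in BLKS with high-fat feeding, with 0 of 14 called in either. With the acinar score as a covariate, 0 channel genes were called in either strain. Leaving each mouse out in turn gave 0 called genes in both high-fat comparisons.

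Scn2b, the beta-2 subunit that links neuronal sodium channel pores to the cell surface, had the smallest p with pioglitazone in BLKS. There its probe, at chr9:44937945-44938004 (mm9), was at -1.93, -2.44, -3.19 and -3.20 on chow, at -5.03, -3.82, -3.68 and -3.96 on the high-fat diet, and at -1.33, -1.02, -1.74 and -3.09 with pioglitazone. The 4 pioglitazone mice were all above the 4 high-fat mice, with mouse 4 nearest to them. The difference was 2.33 ± 0.39 (adjusted p 0.051), just short of the threshold, and all 8 arrays were on 1 slide. In BL6 the mice were at -1.18, -1.02, -1.40 and -0.91 on chow, -0.53, -1.65, -0.73 and -1.73 on the high-fat diet, and -1.62, -1.92, -1.65 and -1.61 with pioglitazone, and the last 2 groups overlapped. The strain difference of the drug response was 2.86 ± 0.56 (adjusted p 0.087). Over 22 alternative settings the BLKS difference stayed positive and was called in 5, with adjusted p from 0.0045 to 1. Without BLKS pioglitazone mouse 4 it was 2.76 (adjusted p 0.0045), and with normexp 0.88 (adjusted p 0.22).

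Nerve markers had large differences, not called, in the same BLKS mice. Prph, peripherin of peripheral neurons, was at -4.89, -2.13, -2.86 and -4.29 on the high-fat diet and at 1.28, 1.75, 0.52 and -0.72 with pioglitazone. Of the 9 neuron markers listed, 8 were measured (Dbh was not), 0 were called, and their median difference with pioglitazone in BLKS was 2.10 (-0.86 for high-fat feeding). Their mean score ran from -1.37 to -0.31 on the high-fat diet and from 0.34 to 1.83 with pioglitazone. Prph (4.25), Stmn2 (4.06) and Nefl (3.97) had large differences, with adjusted p from 0.099 to 0.18, and Nefm (0.03), Th (0.02), Elavl4 (0.24) and Tubb3 (0.20) small ones. Of the 7 measured glial markers 0 were called: the mean of Gfap was -5.99 on the high-fat diet and -2.89 with pioglitazone, and the differences of S100b (1.69) and Sox10 (0.65) were smaller. With the neuron score as a covariate, added after the data were seen, the Scn2b difference was 1.00 in place of 2.33. The score did not overlap between the high-fat and pioglitazone mice of BLKS, so this setting cannot tell the drug from nerve content. The part of these markers in the Scn2b difference was not tested.

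**Figure D4:**
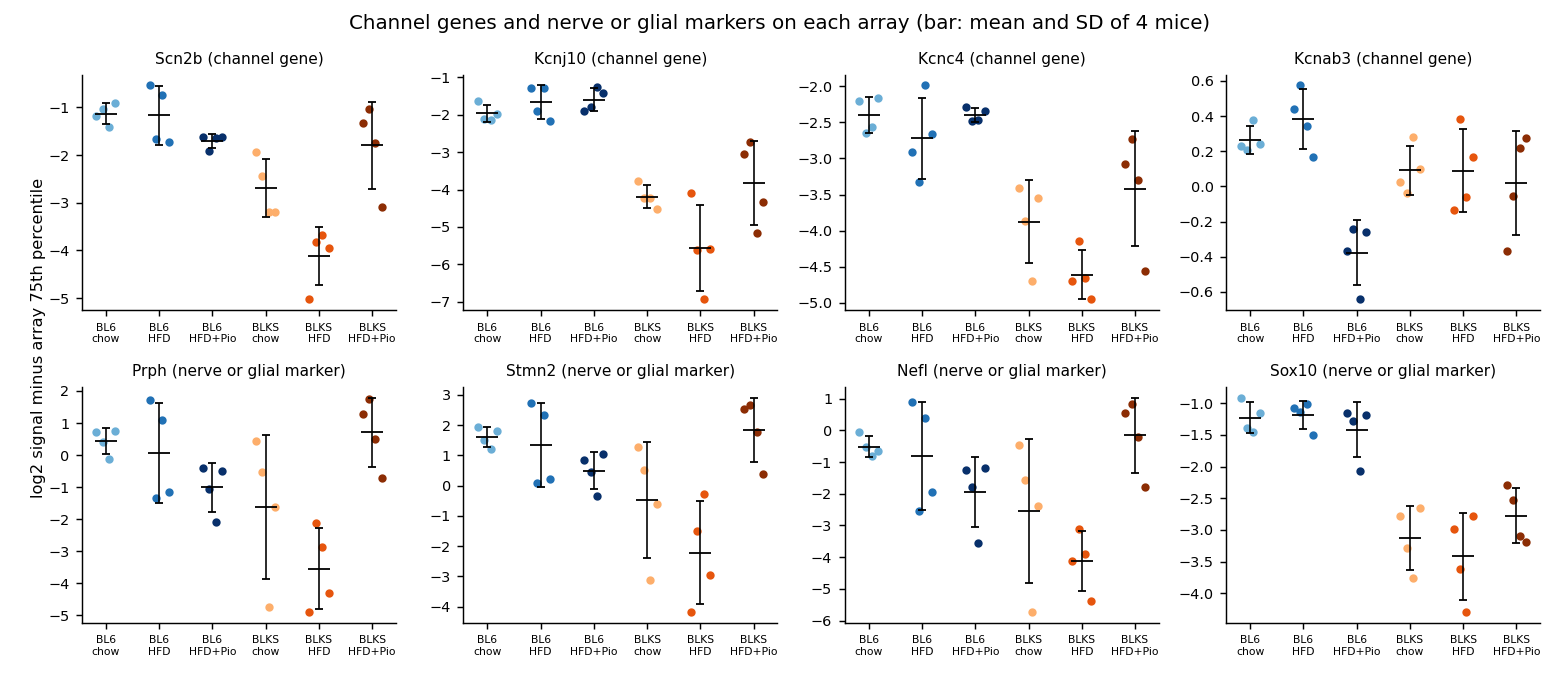
Log2 signal minus the array's 75th percentile in every mouse for 4 channel genes (top) and 4 nerve or glial markers (bottom; points, mice; bars, mean and SD of 4 mice; each panel has its own axis). In BLKS, Scn2b and Prph are low on the high-fat diet (-4.12 on average for Scn2b) and higher with pioglitazone (-1.79), and Kcnab3 is low with pioglitazone in BL6.

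After Scn2b, the 5 channel genes of smallest p with pioglitazone in BLKS had positive differences, none of them called. Kcnj10 differed by 1.74 ± 0.48 (adjusted p 0.38), Kcnc4 by 1.19 ± 0.33 (adjusted p 0.40), Cacng2, a transmembrane partner of AMPA receptors, by 1.33 ± 0.43 (adjusted p 0.64) and Kcnab1 by 0.64 ± 0.20 (adjusted p 0.61). Kcnab1 was at -2.54, -2.54, -2.83 and -2.34 on the high-fat diet and at -1.97, -1.77, -2.09 and -1.86 with pioglitazone, with no overlap. Kcnip4 (0.50, adjusted p 0.84) had no overlap either. With the neuron score as a covariate the Kcnc4 difference was 0.14 and that of Kcnj10 1.32, with the same limit as for Scn2b. Downward, Cacna1h (-0.31) and Cacna1g (-0.57) each had an adjusted p of 1. Without BLKS pioglitazone mouse 4, Kcnc4 was called too (1.57, adjusted p 0.031). With normexp the Kcnj10 difference was 0.38 (adjusted p 0.85).

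No channel gene passed as a strain difference in the response to either treatment: by limma, 0 were called for high-fat feeding (0% of all genes) and 0 for pioglitazone (0.00871%), with 11 and 19 at an unadjusted p under 0.05 (8.48% and 7.48% of all genes). After Scn2b, the p for pioglitazone was smallest for Scn1a (adjusted p 0.20). Scn1a was well above background on 2 of the 4 BL6 high-fat arrays, 1 of the 4 BLKS pioglitazone arrays and 0 of the other 8, so its size is not given. Upward, Kcnab3 came next, and downward Kcnip3 (-0.80, adjusted p 0.40). Without BLKS pioglitazone mouse 4, 2 were called, Scn2b (3.30, adjusted p 0.03) and Scn1a (adjusted p 0.043). For high-fat feeding the smallest p values were those of Kcns3 (-0.87, adjusted p 0.40), Cacng6 (0.62, adjusted p 0.41) and Kcnh8 (0.64, adjusted p 0.47), followed by Scn2b (-1.40), Kcnj10 (-1.67) and Cacna1h (0.68).

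Other genes of membrane excitability were counted from lists of channel partners, other channels, and pumps and exchangers. In the strain comparison, 4 of 16 channel partners were called higher in BLKS and 7 lower, 6 of 27 other channels higher and 12 lower, and 2 of 12 pumps and exchangers higher and 6 lower. With 64.7% of all genes called, these counts are near the background and are no result about the lists. Gem (3.33 ± 0.14), Rem2 (1.68 ± 0.11) and Rrad (1.27 ± 0.25), the small G proteins that bind calcium channel beta subunits and hold back calcium current, were higher. Rem1, of the same group, was not called in the mean over diets (-0.23 ± 0.14, adjusted p 0.15) and was lower in BLKS on the high-fat diet (-0.67 ± 0.24, adjusted p 0.024). Abcc8, the sulfonylurea receptor subunit of the ATP-sensitive potassium channel, was lower (-0.38 ± 0.07), as was Nalcn, the sodium leak channel (-1.32 ± 0.12). None of these lists had a called gene for the high-fat diet or pioglitazone. Stac, a calcium channel adaptor, came nearest with pioglitazone in BLKS (2.56 ± 0.43, adjusted p 0.051).

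Where a channel gene had several kept probes, they did not always give the same strain difference. Over 37 pairs of the brightest probe with another probe, in 32 genes, 27 had the same sign (73%, against 73.9% over all 6653 genes with several kept probes), and 8 differed by over 1 log2 unit (21.6%, against 12.2%). Kcnh6 gave -1.60 on the probe named above and 0.09 (adjusted p 0.52 over probes) on another at chr11:105888126-105888185. For Kcna6 the brightest probe, at chr6:126686702-126686761, gave 0.30 and another at chr6:126658424-126658483, annotated with the RefSeq transcript, gave -1.35. Kcna5 gave -0.33 and -2.95, Scn2a1 0.00 and -1.79, Kcnf1 0.12 and 1.63, Cacna1h 0.14 and 1.49, and Cacnb2 0.72 and -0.04. The probes of Kcnq1 (1.06 and 1.08), Kcne3 (1.43 and 1.37) and Kcnj13 (-1.27 and -1.31) gave close values. Kcnma1 gave -0.17 on its brightest probe, -0.19 on the next and -0.74 on the last (adjusted p 1.1e-06 over probes).

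**Figure D5:**
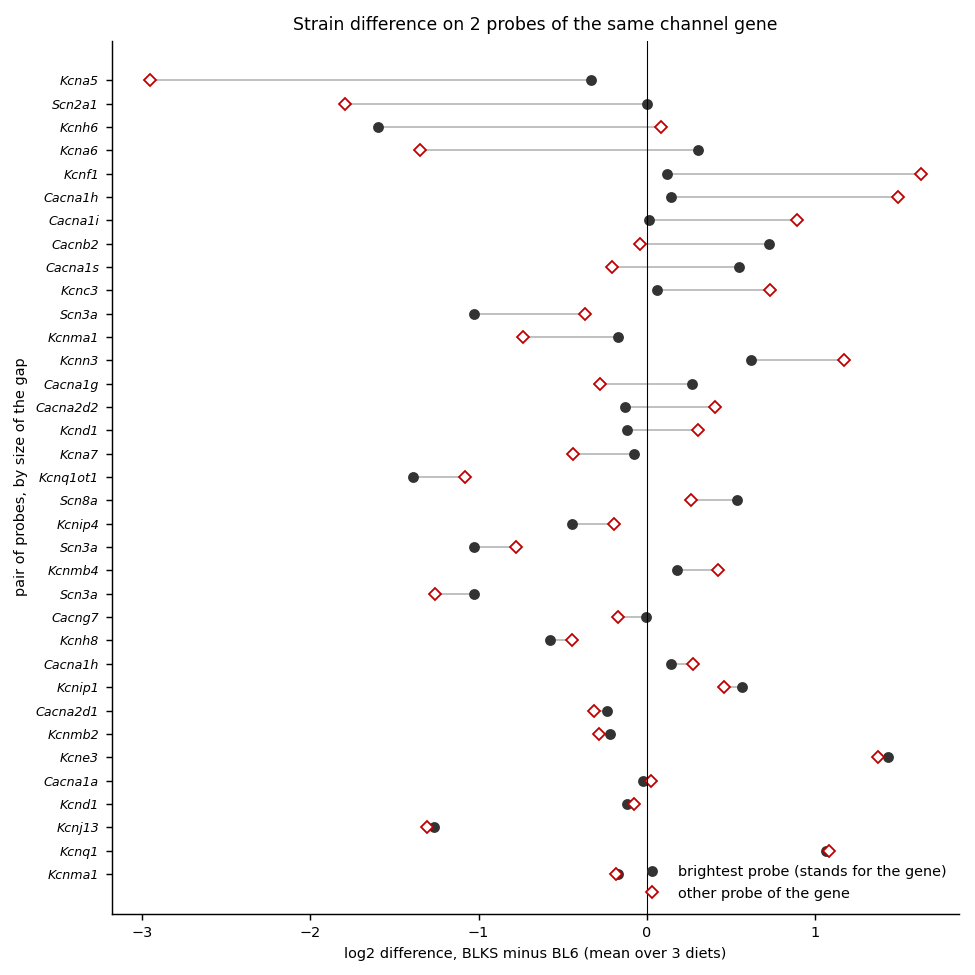
Log2 difference, BLKS minus BL6, averaged over the 3 diets, on the brightest probe (filled circle) and on each other kept probe (open diamond) of 30 channel genes with several kept probes, ordered by the gap between them. Kcna5 has the widest gap (-0.33 and -2.95), and Kcna6 has probes on opposite sides of 0.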

How the data were processed

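Islet RNA of 24 mice was labelled with Cy3, 1 array for each mouse. Per the file headers, the deposited scanner files were made with Agilent Feature Extraction 10.7.3.1 and hold processed intensity, mean and background intensity, and flags, annotated on mouse build mm9. The deposited value table holds a ratio that its values show to be each processed intensity over the median of its array, and was an alternative. Array number limits the precision.

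Processed signals were scaled to the array's 75th percentile and taken as log2. Control spots and 55 probes with outlier flags were left out. A gene needed a probe well above background on at least 4 of 24 arrays, and the brightest kept probe stood for it. limma 3.58.1 (R 4.3.3) was fitted with 6 group means and 10 contrasts, and p-values were Benjamini-Hochberg adjusted over 22968 genes, with a threshold of 0.05. The fit was tested on simulated data. Replicates are mice. Same-numbered mice are different animals, so no pairing was used: deviations from group means correlated from -0.644 to 0.723 over 60 same-number pairs.

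The members, gene lists and rules for the genes named were chosen with earlier results of these data known. Genes named were those called in any contrast, the 3 of smallest p in each direction of each contrast, those detected in 1 group and not another, and a list of genes known from islets. Some members and markers are not reported here by name or in the figures but stay in the counts and scores. Alternatives covered normalization, background correction, the filter, probe choice, slide and mouse-number blocks, marker scores and each mouse left out. Promoters came from RefSeq's table.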

Additional observations from a re-analysis of the deposited data

Results flagged for a closer look

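In 144 groups of 4 mice, those of the 24 genes whose values the results turn on, 5 held a mouse far from the other 3 by Dixon's test (gap over range above 0.829), and chance alone flags about 1 in 20 such groups. Kcna6 was 0.38 in BL6 pioglitazone mouse 3, against 0.64 to 0.68 in the others. Kcnh6 was -2.85 in BLKS high-fat mouse 2, against -1.91 to -1.81. Kcnip3 was 0.57 in BL6 chow mouse 1, against 0.84 to 0.88. Kcnn3 was -0.39 in BLKS high-fat mouse 3, against 0.16 to 0.24. Scn2b was -1.92 in BL6 pioglitazone mouse 2, against -1.65 to -1.61.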

How the results depend on the processing

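Of the channel genes called, 50 of 61 in the mean over diets, 28 of 45 on chow, 27 of 49 on the high-fat diet and 27 of 38 with pioglitazone passed in every setting where they were tested. Leaving out each mouse in turn gave 61 to 67, 36 to 43, 39 to 48 and 32 to 41 strain calls in that order, 0 to 1 with pioglitazone in BL6, 0 to 2 in BLKS, 0 to 2 for the strain difference of that response, and 0 in the other comparisons. When a probe had to be well above background on all 24 arrays, which leaves 64 channel genes, 29 were called on chow and 40 in the mean over diets, and with the neuron score as a covariate 32 on the high-fat diet. Shares of all genes called in these settings are not given here, so these counts are no result about channel genes. The call of Kcnab3 with pioglitazone in BL6 was lost (0 called) in the authors' value table, with only the groups compared, and with the 7 arrays of lymphocyte score above -1 left out. In BLKS 1 was called, Scn2b, with the acinar score, the authors' value table, the mouse number as a replicate block (adjusted p 0.04) and without the 2 arrays of slide 4. The replicate block changed no other call of a diet or drug comparison, and gave 62 strain calls in place of 61.

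With the mean of a gene's kept probes, signs that turned included those of Kcna6 (-0.52 in the mean over diets, -1.15 on the high-fat diet), Cacna1g (-0.0041) and Cacna2d2 (0.14). Without the filter Scn1a became 0.49, and 0.92 on chow. Cacna1a (-0.02) turned to 0.0303 in the authors' value table and 0.0097 with the neuron score, and ranged from -0.0689 to 0.0138 with 1 mouse left out. Beyond the probes and mice changed, the cause was not tested. The neuron score, lymphocyte and slide 4 settings were added after seeing the data. Signals near background limit the size of differences of dim genes such as Kcnmb1 and Kcnj10.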
